A study of Bos taurus with 6 samples.

Results

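The integrins and laminins are described here in intramuscular fat (IMF) of castrated and intact Qinchuan cattle. The members are set by name, as the genes of the mRNA count table whose symbol begins with LAMA, LAMB, LAMC, ITGA or ITGB and goes on with a digit, together with the lettered integrin alpha chains and NID1, NID2 and HSPG2. The rule took 42 of the 25444 genes of the table, and it uses no measured value, although the family was picked for description with earlier results of these data known. They comprise 24 integrin chains, 11 laminin chains, the 2 nidogens, perlecan (HSPG2) and 4 further genes (ITGB1BP1, ITGB1BP2, ITGB1BP3 and ITGB3BP) that match by their letters only and encode other proteins. Integrin chains of leukocytes, 6 in number, were compared with the 36 other members. ITGAM, ITGAX and LAMB4 were not analysed here.

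Steers and bulls were Chinese Qinchuan males of a single sire, slaughtered at 24 months of age after the same feeding, and the steers had been castrated surgically at 6 months. The IMF was dissected from the sternomandibularis muscle. RNA of each group was pooled into 1 library, from 6 animals by the series' design text and from 3 by the sample labels. An mRNA value is therefore that of a pool, and the spread between animals was not measured.

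Integrins are receptors of 1 alpha and 1 beta chain that tie the cytoskeleton to the matrix or to other cells. The beta2 and beta7 chains and their alpha partners are carried by leukocytes and serve their arrest on vessels and their passage into tissue. The remaining chains bind collagens, laminins or proteins with an RGD sequence and are found on stromal, endothelial, muscle and epithelial cells. Laminins are heterotrimers of an alpha, a beta and a gamma chain, and with collagen IV, nidogens and perlecan they build the basement membrane that surrounds each adipocyte, muscle fibre and capillary.

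The libraries held 12677375 counts in steers and 9868415 in bulls. To bring the libraries to a common scale, size factors by the median of ratios were used (1.04 and 0.959). The 17752 genes with a count were then tested one by one with a two-sided exact binomial test. Differences are given as the log2 of the fold change in steers over bulls (log2FC). Calls required a log2FC beyond 1 in either direction together with a Benjamini-Hochberg adjusted p below 0.05. With 1 pool a group such a test speaks of the 2 pools, not of castration, and the 95% intervals given below cover counting error only. Adipocyte transcripts were present in both pools (ADIPOQ had 4513 counts in steers and 6651 in bulls), as were those of muscle fibres (ACTA1 had 13852 and 19910). Of 7 adipocyte markers with a count, CIDEA was called higher in steers and FABP4 lower, and the median log2FC was -0.02.

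Of the 42 members, 2 were called higher in steers and 7 lower. Among all genes tested, 4.37% were called higher and 8.13% lower. By group of members, 5 of the 6 leukocyte chains were called lower in steers, compared with 2 of the 36 others, and 0 leukocyte chains and 2 others were called higher. The median log2FC was -2.70 for the leukocyte chains and 0.19 for the others, against 0.01 for all genes with a count. All 42 members had a count in both libraries, and 41 had at least 10 counts over both. Scaling by total counts, which moved the median of all genes to -0.23, turned the median of the others to -0.052 and left that of the leukocyte chains at -2.94.

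**Figure D1:**
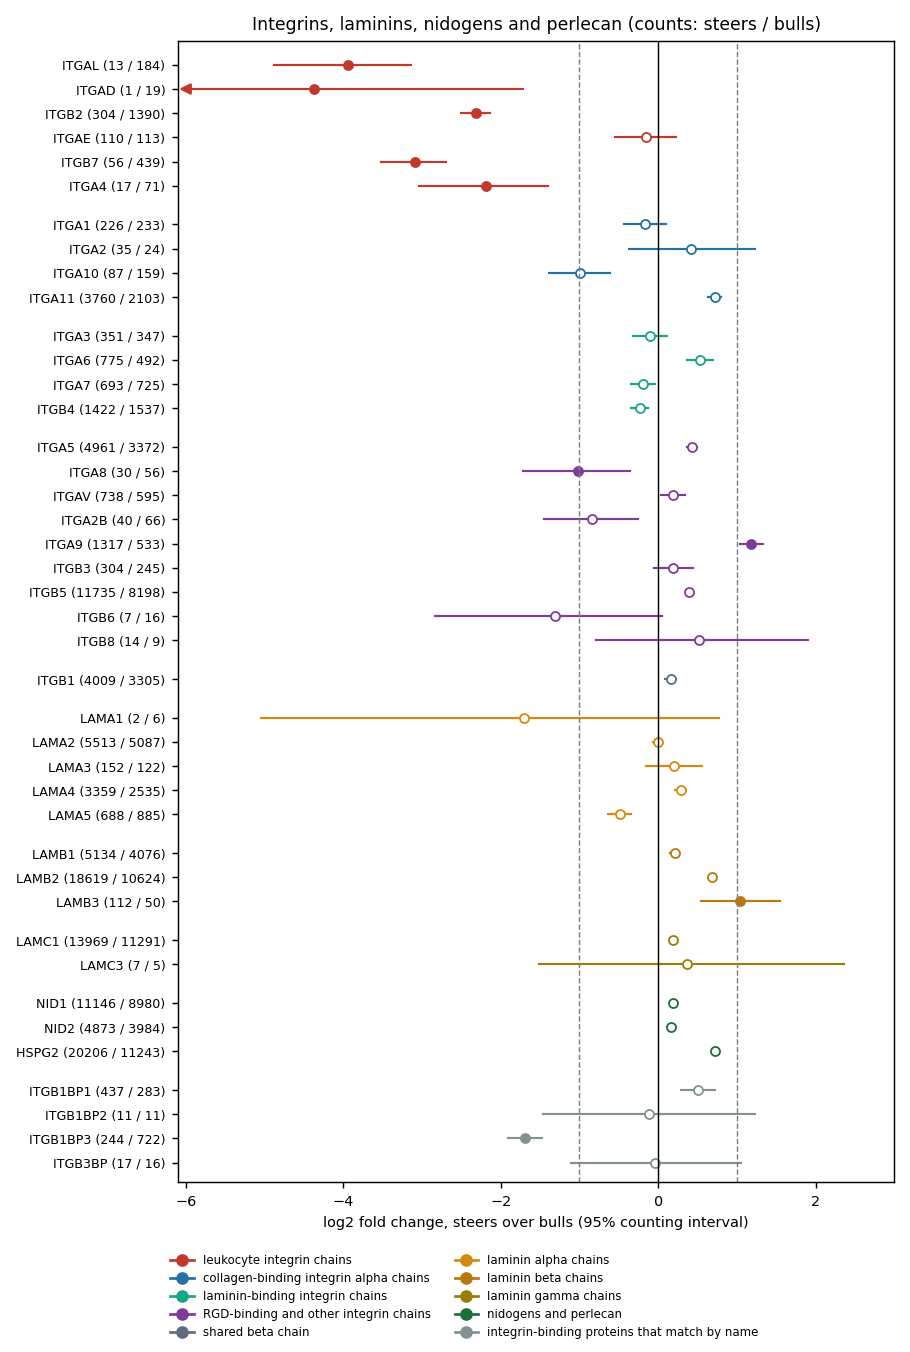
Log2FC of steers over bulls for 41 of the 42 members, by role, with the 95% counting interval as a line and the counts in steers and bulls beside the symbol. Filled points were called, open points were not, dashed lines mark a 2-fold difference, and an arrow marks an interval that runs past the axis. Of the 6 leukocyte chains at the top, 5 lie between -4.37 and -2.18, and ITGAE lies at -0.16.

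Among the beta2 integrins, ITGB2, the beta chain shared by that family, had 304 counts in steers against 1390 in bulls. It was 4.98-fold lower in steers, with a log2FC of -2.32 (interval -2.50 to -2.14). ITGAL, the alpha chain that pairs with ITGB2 on lymphocytes and binds ICAM proteins, had 13 and 184 counts and was 15.4-fold lower, at -3.95 (-4.88 to -3.14). Of the 10464 genes with at least 100 counts, only 30 had a lower log2FC than ITGAL and 163 a lower value than ITGB2. ITGAD, an alpha chain of tissue macrophages, was scarce, with 1 count in steers and 19 in bulls. Its log2FC of -4.37 had an interval of -9.75 to -1.72, so that its size is poorly fixed at this depth. All 3 chains were called lower under each scaling tried, and in edgeR's exact test with an assumed coefficient of variation of 0.4 between pools ITGAL was the 1 leukocyte chain still called. ITGAD and ITGAL belong to a set of similar alpha chain genes, and how reads that match several of them were treated is not given in the sources used here.

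ITGB7, the beta chain of the gut-homing and epithelium-binding integrins, had 56 counts in steers, 439 in bulls, and fell by 3.09 on the log2 scale (interval -3.52 to -2.69), or 8.53-fold. ITGA4, which pairs with ITGB7 or ITGB1 and binds VCAM1 and MADCAM1, had 17 and 71 counts, which put it at -2.18 (-3.04 to -1.41). Both were called lower. ITGAE, which pairs with ITGB7 and binds E-cadherin, had nearly equal counts, 110 in steers and 113 in bulls, and lay at -0.16 (-0.55 to 0.23). It was the 1 leukocyte chain not called, and its interval does not overlap that of any of the others. A reading of RefSeq names places the gene GSG2 within ITGAE, and GSG2 had 16 counts in each library. E-cadherin (CDH1) had 10 and 5 counts.

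Summed over the 6 leukocyte chains there were 501 counts in steers and 2216 in bulls, or 0.00395% and 0.0225% of each library. The log2FC of the sum was -2.27 (interval -2.41 to -2.13), and -2.55 (-2.71 to -2.39) without ITGAE. The 36 other members summed to 115014 and 81953 counts, 0.907% and 0.830% of the libraries, with a log2FC of 0.37 (0.35 to 0.38). With total counts this sum would lie 0.24 lower on the log2 scale. The integrin chains as a whole took 0.245% of all counts in the pool of steers and 0.246% in that of bulls.

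**Figure D2:**
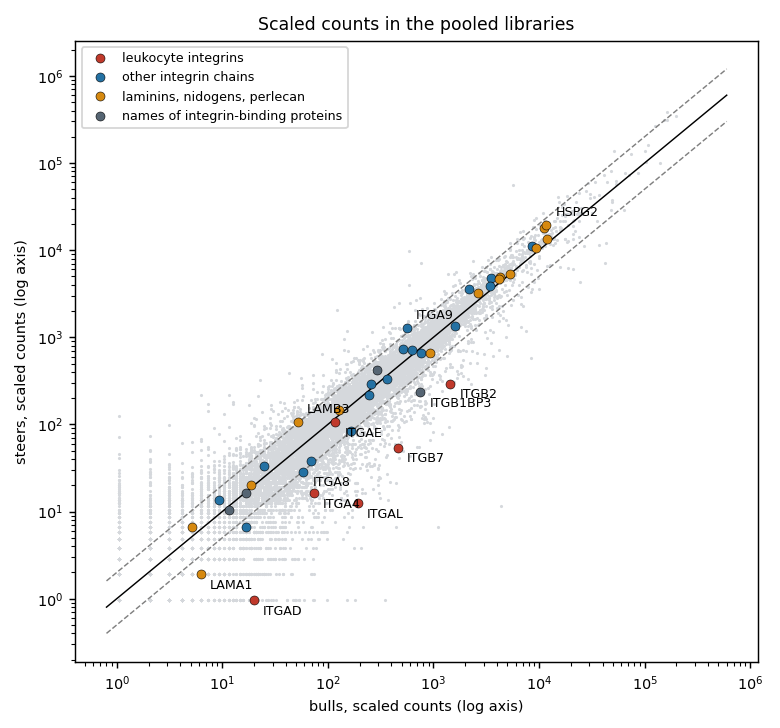
Scaled counts of each gene in the pooled library of bulls (x axis) and of steers (y axis), both on log axes, with all genes counted in both libraries in grey, the line of equality and dashed lines at a 2-fold difference. ITGAL, ITGAD, ITGB2, ITGB7 and ITGA4 lie below the lower dashed line, while ITGAE and the abundant laminins, nidogens and perlecan lie between the dashed lines.

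General leukocyte transcripts were lower in the same library. Of 8 leukocyte markers, all 8 were called lower in steers, with a median log2FC of -2.40 and 3365 counts in steers against 11191 in bulls. All 8 T lymphocyte markers were called lower, with 101 and 879 counts and CD3G at 0 in steers. Among 9 myeloid markers 7 were called lower, with 20471 and 42759 counts. In bulk tissue, fewer cells of a type and less RNA per cell cannot be told apart, and the part of leukocyte number in the integrin values was not tested.

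Ratios within a library do not depend on the scaling between libraries. PTPRC, the CD45 antigen of nearly all leukocytes, had 107 counts in steers and 780 in bulls. There were 4.68 counts of the leukocyte chains per count of PTPRC in steers and 2.84 in bulls, a log2 change of the ratio of 0.72 (exact interval 0.39 to 1.06). Without ITGAE the change was 0.44 (0.10 to 0.78). The chains differed among themselves in this respect. ITGB2 was higher relative to PTPRC in steers, by 0.67 (0.32 to 1.03), and ITGAL lower, at -0.96 (-1.94 to -0.08). For ITGB7 to PTPRC the change of -0.10 had an interval of -0.63 to 0.41, so a difference was not detectable at this depth. ITGAE had 0.145 counts per count of PTPRC in bulls and 1.03 in steers, a change of 2.82 (2.33 to 3.32), which was farther from 0 than those of ITGB2, ITGB7 and ITGAL. Against the summed leukocyte markers the leukocyte chains were lower in steers, at -0.41 (-0.56 to -0.26), so the sign of such a ratio depends on the marker chosen. The ratios of ITGB2, ITGB7, ITGAL and ITGAE to PTPRC and the 2 sums without ITGAE or against all markers were added after their counts had been seen, as were ITGB7 to ITGB2, ITGA10 to ITGA11, ITGA9 to ITGA4, ITGA5 and ITGA11 to ITGB1, LAMB2 to LAMC1 and HSPG2 to NID1.

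Partner chains did not keep their proportions either. ITGAL per count of ITGB2 was 0.0428 in steers and 0.132 in bulls, a change of -1.63 (-2.59 to -0.79). ITGAE per count of ITGB7 was 1.96 in steers and 0.257 in bulls, a change of 2.93 (2.36 to 3.51). For ITGAD to ITGB2 (-7.44 to 0.61) and ITGA4 to ITGB7 (-0.05 to 1.81) the intervals reached 0.

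**Figure D3:**
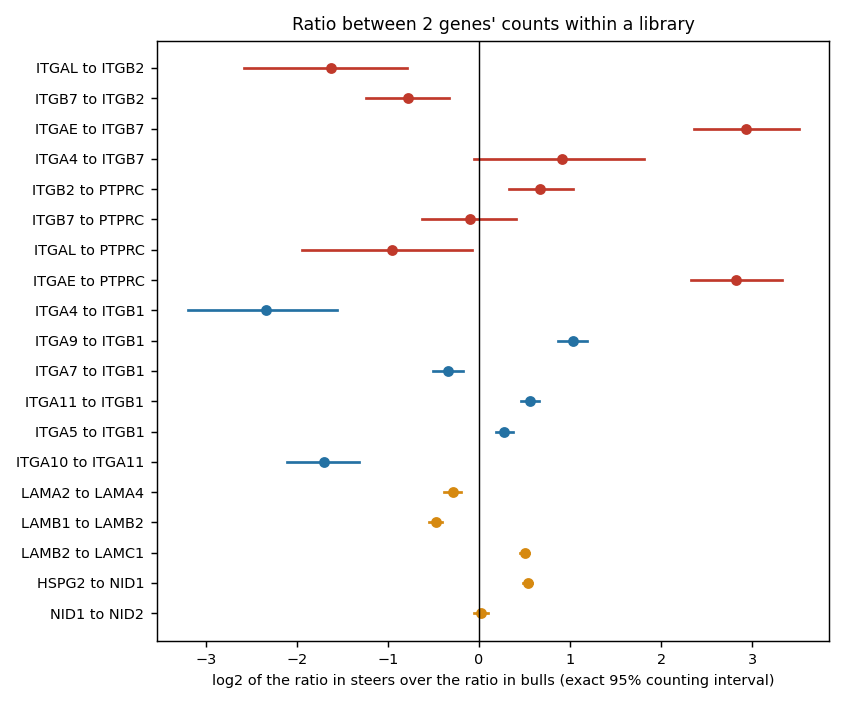
Change in the ratio of 2 genes' counts between the libraries, as the log2 of the ratio in steers over that in bulls, with its exact 95% counting interval. Red marks ratios of leukocyte chains, blue those of alpha chains to ITGB1 or of ITGA10 to ITGA11, and orange those of laminins, nidogens and perlecan. ITGAE to ITGB7 and ITGAE to PTPRC stand farthest to the right, at 2.93 and 2.82, and NID1 to NID2 lies at 0.02.

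Of the 4 alpha chains that bind collagen with ITGB1, 0 were called. ITGA11, the collagen receptor of fibroblasts, had 3760 counts in steers against 2103 in bulls, with a log2FC of 0.72 (interval 0.64 to 0.79). ITGA10, which is best known from cartilage, had 87 and 159 counts and lay at -0.99 (-1.39 to -0.61), just inside the threshold. With TMM or total counts ITGA10 was called lower, at -1.01 and -1.23. The ratio of ITGA10 to ITGA11 changed by -1.71 (-2.11 to -1.31). ITGA1 (226 counts in steers, 233 in bulls) and ITGA2 (35 and 24) had intervals that include 0. In RefSeq they overlap the genes PELO (512 and 379 counts) and MOCS2 (292 and 245). Of 8 fibroblast markers, 7 had an interval above 0, against 23.0% of all genes, and the median was 0.94. Among the 3593 genes with at least 500 counts in either library, 1877 had an interval above 0. Intervals are narrow at such counts, and DCN, at 0.04 (0.02 to 0.05), is among the 7. With total counts each of these values would lie 0.24 lower on the log2 scale. The part of fibroblast RNA in the value of ITGA11 was not tested.

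Among the laminin receptors, 0 of 4 were called. ITGA6, the alpha chain that pairs with ITGB1 or ITGB4 on epithelium, endothelium and nerve, had 775 and 492 counts and lay at 0.53 (0.37 to 0.70). Its partner ITGB4, the beta chain of hemidesmosomes, had 1422 and 1537 counts and lay at -0.23 (-0.34 to -0.13). ITGA7, the main laminin receptor of muscle fibres, had 693 and 725 counts and lay at -0.19 (-0.34 to -0.04). ITGA3 was at -0.11 with an interval from -0.32 to 0.11. ITGA6 and ITGB4 thus had intervals on opposite sides of 0. Summed, the 4 chains had 3241 counts in steers against 3101 in bulls, a log2FC of -0.06 (-0.13 to 0.01). Skeletal muscle markers summed to 32139 and 49275 counts, with 3 of 9 called lower and 1 higher, and their part in the value of ITGA7 was not tested.

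ITGA9 was the 1 integrin chain called higher. This alpha chain pairs with ITGB1 and binds tenascin C, osteopontin and VCAM1, and it is known from lymphatic valves and muscle. With 1317 counts in steers against 533 in bulls it was 2.27-fold higher in steers, at a log2FC of 1.18 (interval 1.04 to 1.33). Of the genes with at least 100 counts, 218 had a higher value. Relative to ITGB1 its counts changed by 1.03 (0.87 to 1.19). With total counts ITGA9 lay at 0.94 and was not called, nor was it called with an assumed coefficient of variation of 0.2. Its closest relative, ITGA4, was called lower, and there were 77.5 counts of ITGA9 per count of ITGA4 in steers and 7.51 in bulls. Of the ligands, tenascin C (TNC) had 11802 and 35439 counts and fell by 1.71, osteopontin (SPP1) had 116 and 302 and was called lower too, and VCAM1, with 570 and 370, was at 0.50 and was not called.

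The shared beta chain ITGB1 had 4009 counts in steers against 3305 in bulls and lay at 0.16 (0.09 to 0.22), which turned to -0.083 with total counts. ITGA5, the fibronectin receptor chain, had 4961 and 3372 counts and lay at 0.43 (0.37 to 0.50). ITGB5, which pairs with ITGAV and binds vitronectin, had 11735 and 8198 counts and lay at 0.40 (0.35 to 0.44). ITGAV itself, with 738 and 595 counts, was at 0.19 (0.03 to 0.35) and at -0.051 with total counts. None of these 4 chains was called. Fibronectin (FN1) also had a value above 0, 0.44 on 144350 and 97549 counts.

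Of the less abundant RGD-binding chains, ITGA8 was called lower. This nephronectin receptor of smooth muscle and stromal cells had 30 and 56 counts and lay at -1.02 (-1.71 to -0.36), and in edgeR's exact test with an assumed coefficient of variation of 0.1 between pools it was no longer called. Of 7 pericyte and smooth muscle markers, MCAM was called lower, at -1.26, and 0 higher, with intervals below 0 for 4 and above 0 for 3. With total counts 5 intervals lay below 0 and 1 above. Over all genes, 21.0% had an interval below 0 and 23.0% one above it. Of the 3593 genes with at least 500 counts in either library, 934 had one below and 1877 one above. These markers summed to 27986 and 41591 counts (-0.69, interval -0.72 to -0.67). MCAM alone held 11693 and 25750 of them, so the sum leans on that 1 gene. The part of these markers in the value of ITGA8 was not tested. The platelet chain ITGA2B had 40 and 66 counts and lay at -0.84 (-1.45 to -0.26), and with total counts it was called at -1.08. Platelet markers were close to absent, with GP9, GP1BA and PPBP at 0 in both libraries and PF4 at 1 count in steers and 0 in bulls. ITGB3, the partner of ITGA2B and ITGAV, had 304 and 245 counts (0.19, interval -0.06 to 0.44). ITGB6 and ITGB8, with ITGAV the activators of latent TGF-beta, had under 20 counts in each library, and their intervals include 0.

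The laminin alpha chains summed to 9714 counts in steers and 8635 in bulls, a log2FC of 0.05 (0.01 to 0.09) that turned to -0.19 (-0.23 to -0.15) with total counts. LAMA2, the alpha chain of muscle and nerve basement membranes, had 5513 and 5087 counts and lay at -0.01 (-0.06 to 0.05). LAMA4, the chain of vessels and of the membrane around fat cells, had 3359 and 2535 counts and lay at 0.28 (0.21 to 0.36). LAMA5, of mature vessels and epithelium, lay at -0.49 (-0.63 to -0.34) on 688 and 885 counts. None of the 3 was called, and with total counts LAMA2 lay at -0.25, LAMA4 at 0.045 and LAMA5 at -0.72. LAMA4 took 34.6% of the alpha chain counts in steers (exact binomial interval 33.6 to 35.5) and 29.4% in bulls (28.4 to 30.3), while LAMA5 took 7.08% (6.58 to 7.61) and 10.2% (9.62 to 10.9). LAMA2 to LAMA4 changed by -0.29 (-0.38 to -0.20). Counts were not divided by gene length, so such shares compare the same chain between the libraries and not the chains with each other.

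Of the beta chains, LAMB2 had 18619 counts in steers against 10624 in bulls and lay at 0.69 (0.65 to 0.72), and LAMB1 had 5134 and 4076 and lay at 0.21 (0.15 to 0.27). Both belong to laminins of the basement membranes of muscle, fat and vessels, and neither was called. LAMB2 took 72.0% of the beta chain counts in bulls (71.3 to 72.8) and 78.0% in steers (77.5 to 78.5), and the ratio of LAMB1 to LAMB2 changed by -0.48 (-0.55 to -0.41). The gamma chain LAMC1, common to nearly all laminins of these tissues, had 13969 and 11291 counts and lay at 0.18 (0.15 to 0.22). LAMB2 to LAMC1 went from 0.941 to 1.33, a change of 0.50 (0.45 to 0.55). With total counts LAMB1 and LAMC1 turned to -0.028 and -0.054, and LAMB2 stayed above 0.

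LAMB3 was the 1 laminin chain called. With 112 counts in steers against 50 in bulls it was 2.06-fold higher in steers, at 1.04 (0.55 to 1.55), which with total counts was 0.80 and not called. An assumed coefficient of variation of 0.2 ended this call as well. LAMB3 joins LAMA3 in the laminin of epithelial anchorage. LAMA3 had 152 and 122 counts (0.20, interval -0.16 to 0.55) and was not called. Of 7 epithelial markers, 3 were called higher in steers, EPCAM with 8 and 0 counts, KRT8 with 148 and 7 and KRT18 with 77 and 20. CDH1 (10 and 5), CLDN4 (14 and 4) and KRT5 (3 in each library) were not called, and KRT14 was at 0 in both. The 7 summed to 260 counts against 39 in bulls. Their part in the value of LAMB3 was not tested. LAMA1 and LAMC3 had under 10 counts in each library.

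**Figure D4:**
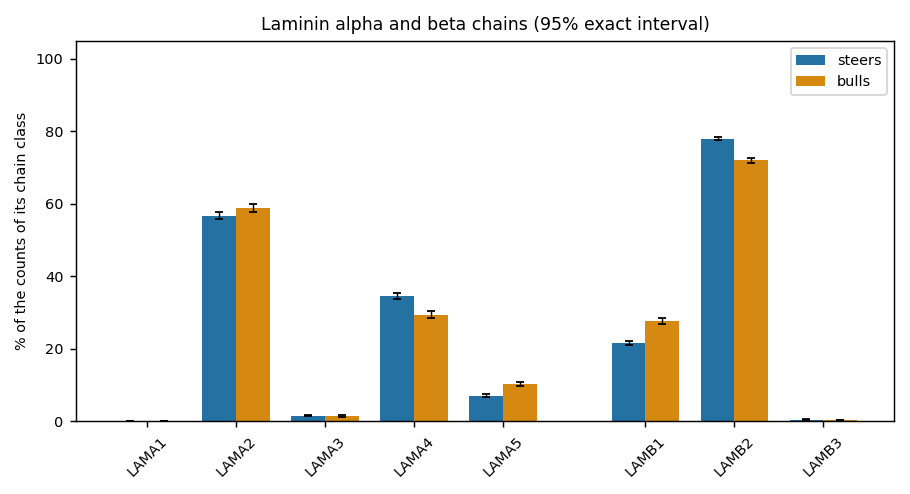
Share of each laminin chain in the counts of its chain class (alpha or beta), in percent, for the pooled libraries of steers and bulls, with exact 95% binomial intervals as error bars and no adjustment for gene length. LAMA4 and LAMB2 took a larger share in steers (34.6% and 78.0%) than in bulls (29.4% and 72.0%), and LAMA5 and LAMB1 a smaller one.

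Perlecan (HSPG2), the large heparan sulfate proteoglycan of basement membranes, had 20206 counts in steers against 11243 in bulls and lay at 0.72 (0.69 to 0.76). The nidogens, which bridge laminin and collagen IV, were lower on that scale. NID1 had 11146 and 8980 counts and lay at 0.19 (0.15 to 0.23), and NID2 had 4873 and 3984 and lay at 0.17 (0.11 to 0.23). With total counts both nidogens turned, to -0.050 and -0.071, and perlecan did not. The ratio of NID1 to NID2 was 2.29 in steers and 2.25 in bulls, a change of 0.02 (-0.05 to 0.09), so the nidogens kept their proportion within counting error. HSPG2 to NID1, by contrast, changed by 0.53 (0.48 to 0.59). In RefSeq NID2 overlaps LOC613519, with 3111 and 3253 counts, and reads of the pair cannot be told apart where strand was not used.

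Of the 14 laminins, nidogens and perlecan, 11 had a log2FC above 0 and 8 an interval above 0. The median was 0.19, with the scarce members of the 14 kept in. It was 0.01 for all genes with a count and 0.15 for the 3593 genes with at least 500 counts in either library. With total counts 5 of the 14 were above 0. Over all genes, 23.0% had an interval above 0 and 21.0% one below it. Intervals are narrow at higher counts, and of the 3593 genes 1877 had one above 0 and 934 one below. Of the 20 members with at least 500 counts, 1 (ITGA9) was called higher and 2 (ITGB2 and ITGB1BP3) were called lower, while 3.98% of all genes at that level were called higher and 5.43% lower.

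The 4 genes that match by letters only encode no integrin chain. ITGB1BP3, listed in RefSeq as NMRK2, is a nicotinamide riboside kinase of muscle. It had 244 counts in steers, 722 in bulls, and fell by 1.69 on the log2 scale (interval -1.90 to -1.48), or 3.22-fold. Slow fibre and intermediate filament transcripts among the skeletal muscle markers were also called lower, MYH7 with 675 and 2906 counts, TNNT1 with 485 and 1801 and DES with 3721 and 8207, whereas MYH1 was called higher with 247 and 102. The other 5 of these 9 markers were not called, and the part of muscle RNA in the value of ITGB1BP3 was not tested. ITGB1BP1, which binds the tail of ITGB1 and restrains integrin activation, had 437 and 283 counts and lay at 0.50 (0.29 to 0.73). ITGB1BP2 (melusin, of striated muscle) had 11 counts in each library, and the centromere protein gene ITGB3BP had 17 and 16.

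Among genes that act with integrins and laminins, lists of 74 were written from general knowledge. Under the symbols listed, 70 were in the table and 68 had a count. Of these, 3 were called higher in steers and 16 lower, against 4.37% and 8.13% of all genes tested. Of the adaptors that couple integrins to signals in leukocytes, 8 of 10 were called lower and 0 higher, with a median of -1.96. FYB, the adaptor that links T cell receptor signals to integrins, had 19 and 202 counts and lay at -3.53 (interval -4.29 to -2.85). CYTIP had 15 and 129 counts (-3.23, interval -4.11 to -2.45), and the GTPase RAC2 had 192 and 804 (-2.19, interval -2.42 to -1.96).

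Of 23 general activators and adaptors, 2 were called lower and 0 higher, and the median was 0.02. The 2 called were the forms of blood cells, the kindlin FERMT3 with 171 and 711 counts (-2.18, interval -2.43 to -1.94) and the parvin PARVG with 22 and 176 (-3.12, interval -3.83 to -2.48). Their widely expressed relatives were not called. FERMT2 had 677 and 596 counts (0.06, interval -0.10 to 0.22) and PARVA had 1710 and 1417 (0.15, interval 0.05 to 0.25). PARVB lay below 0, with 474 and 657 counts (-0.59, interval -0.77 to -0.42). Talin (TLN1), which binds the tails of beta chains in all cells, had 14027 and 13108 counts and lay at -0.02 (-0.06 to 0.01).

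Of 6 ligands of leukocyte integrins with a count, 0 were called. ICAM1, the ligand of beta2 integrins, had 576 and 762 counts and lay at -0.53 (-0.68 to -0.37), and ICAM3 lay at -0.35 (-0.53 to -0.17). On the other side of 0, THY1, a surface protein of fibroblasts and endothelium, had 35642 and 16389 counts and lay at 1.00 (0.97 to 1.03), just inside the threshold, and VCAM1 lay at 0.50 (0.31 to 0.69). The median of the 6 was 0.26, and 2 of them had an interval above 0, 2 below it and 2 across it. With total counts 2 intervals lay above 0 and 3 below, as JAM3 moved to -0.22 (-0.35 to -0.09). Over all genes, 23.0% had an interval above 0 and 21.0% one below it, without total counts. Endothelial markers, 8 in number, had a median of -0.24, 10090 counts in steers and 9659 in bulls, and 0 calls.

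For basement membranes, 2 of 12 further genes were called higher and 2 lower, against 4.37% and 8.13% of all genes tested. COL15A1, the collagen that anchors basement membranes to the stroma, had 12727 and 5071 counts and rose by 1.21 (interval 1.16 to 1.25), and SPARC rose by 1.08 (1.07 to 1.09). With total counts neither was called. The main collagen IV chains COL4A1 and COL4A2 lay at 0.93 and 0.87 and were not called, while the scarcer COL4A5 (62 and 150 counts) and COL4A6 (42 and 113) fell by 1.40 and 1.55. Of 7 other laminin receptors 0 were called, with dystroglycan (DAG1) at 0.82 (0.73 to 0.91). All 7 had an interval above 0, against 23.0% of all genes and 1877 of the 3593 with at least 500 counts in either library. With total counts only 4 did, and BCAM and RPSA turned to -0.13 and -0.027. Of 10 matrix ligands with a count, POSTN rose by 1.02 (0.84 to 1.21), and 4, TNC, SPP1, THBS1 and TGFB1, were called lower. With total counts POSTN lay at 0.78 and was not called. With an assumed coefficient of variation of 0.2, COL15A1, SPARC and POSTN were not called.

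**Figure D5:**
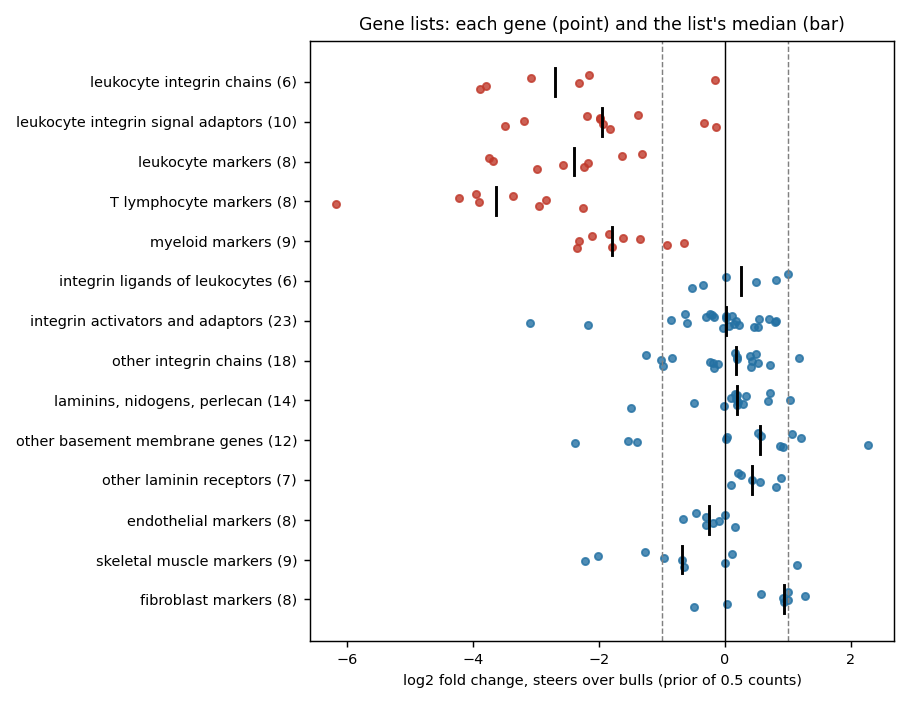
Log2FC of steers over bulls, with a prior of 0.5 counts, for each gene (point) of 14 lists, with the median of each list as a black bar, dashed lines at a 2-fold difference and the number of genes in brackets. The leukocyte chains, their signal adaptors and the leukocyte, T lymphocyte and myeloid markers (red) have medians of -1.79 or lower, while the medians of the other integrin chains and of laminins, nidogens and perlecan lie at 0.17 and 0.19.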

How the data were processed

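The deposited mRNA values are raw counts per gene, for which the authors trimmed and filtered reads and mapped them with MapSplice. The program used to count them, its use of strand and its treatment of reads that match several genes are not given in the sources used here. Each group is 1 pooled library, so edgeR's quasi-likelihood test could not be fitted. Size factors by the median of ratios (numpy 2.4.6) scaled the libraries, which were compared with an exact binomial test (scipy 1.17.1, the smaller tail doubled) with Benjamini-Hochberg adjustment. Intervals are 95% Clopper-Pearson or, for ratios of genes, conditional exact intervals. Reads are not independent molecules, so these describe counting error alone. Medians of lists use a prior of 0.5 counts. The calls were also run on simulated counts that held counting error and no spread between animals or pools. Such a run cannot show how the calls fare between single pools.

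The alternatives were scaling by total counts, TMM (edgeR 4.0.16 under R 4.3.3) or upper quartile, a minimum of 10 counts, edgeR's exact test with assumed biological coefficients of variation of 0.1, 0.2 and 0.4, each threshold alone, a prior of 5 counts, ITGA4 moved to the others, and the 4 non-integrin names left out. Members called or with at least 500 counts are given in full, and up to 5 pathway genes called in each direction with at least 10 counts per library, with others named where a member's partner or ligand is described. The rule for the members uses names only, but this family and the lists were picked with earlier results of these data known. Overlaps come from names in RefSeq's annotation of another build (41 members matched by symbol and 1 by synonym). In it 8 members overlapped another gene of the count table, namely ITGAE, ITGA1, ITGA2, NID2, HSPG2, ITGB6, ITGB1BP1 and ITGB3BP. For the mapping of reads, the paper names a bovine genome build and the sample labels a human one, and this conflict was not resolved here. The values of 1 member are not reported here. Small RNA counts, sequences and levels per gene length were not used here.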

Additional observations from a re-analysis of the deposited data

How the results depend on the processing

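No paired analysis was possible because each mRNA group is 1 library. In the counts and medians, 76 of 111 alternative values stayed within 1.5 times of the count, or within the counting interval of the median, given in the report. The intervals of the medians are not printed here. The 5 lower leukocyte chains were called under each scaling and under assumed coefficients of variation of 0.1 and 0.2. The cause of the changes below was not tested, beyond the construction of each alternative.

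Total counts left 0 members, 0 others and 0 pathway genes higher and 4 others lower, and moved the median of the others to -0.052. It turned ITGAV to -0.051, ITGB1 to -0.083, LAMB1 to -0.028, LAMC1 to -0.054, NID1 to -0.050 and NID2 to -0.071, and upper-quartile scaling turned LAMA2 to 0.0091. With an assumed coefficient of variation of 0.1, 1 other member was lower. With 0.2, 0 members, 0 others and 0 pathway genes were higher, 1 other was lower, and 368 genes of the table were higher and 762 lower. With 0.4, 0 members were higher and 1 lower, ITGAL, which is the 1 leukocyte chain left, 0 others were higher and 0 lower, 0 pathway genes were higher and 1 lower, and 52 genes of the table were higher and 93 lower. Without a fold threshold 16 members were higher and 12 lower, among the others 16 and 7, among pathway genes 25 and 25, and over all genes 3535 and 3254. By fold alone 4 others were lower, and 2317 and 2912 genes of the table passed, compared with 776 and 1444. The median of the leukocyte chains was -2.18 with a prior of 5 counts and -3.08 without ITGA4. Without the 4 non-integrin names, 1 other member was lower.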
